A study of Mus musculus with 9 samples.

Results

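Genes of the cell cycle were followed in heart ventricles of fetal mice (male, E18.5) that differ in Esrrg, the gene of the orphan nuclear receptor ERRγ. The set names 43 genes, picked by symbol: 12 of S phase, 21 of mitosis, 8 that drive or time G1, and 2 inhibitors of cyclin-dependent kinases. Each gene was read from its brightest probe set among those annotated to a single gene, which gave values for 42 of the 43. Ccnb1 had no such probe set and was not analysed here. All 42 passed the filter on dim genes (a mean level equal to a signal of 21.7 or more) and stood among 13028 genes tested, of 18193 with a probe set.

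The groups were WT (Esrrg +/+), HET (Esrrg +/-) and KO (Esrrg -/-), with 3 Affymetrix mouse expression arrays of each. All fetuses were male and of the same day, and hearts were kept in RNALater. The sources used here do not give the strain, the construction of the allele or the cells in which it acts. Arrays of a group are labelled as biological replicates, but the labels leave it unsettled whether each holds the ventricles of a single fetus or of several pooled, and p-values cover only the spread among these 9 arrays. Signals of Esrrg itself ordered the arrays as labelled, at 206 to 281 in WT, 162 to 164 in HET and 39.3 to 58.3 in KO. Cardiomyocyte markers were bright on every array, with a summed signal of 10 markers of 169230 to 197210.

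Control probe sets parted the arrays in another way. The log2 ratio of the spike-ins thr and dap lay between -1.02 and -0.81 on the 3 WT arrays and HET replicate 1, and between -1.33 and -1.20 on HET replicates 2 and 3 and the 3 KO arrays. These sets of arrays are called the first and the second array batch below. The batch is inferred from control probes, and no date or run is given with it. The cut was placed at the widest gap between neighbouring ratios, from -1.20 to -1.02. Such a rule yields 2 sets from any values, and the gap is narrower than the range of ratios within the first batch. Every WT array lies in the first and every KO array in the second, so genotype and batch can be separated only through the HET arrays, of which 1 lies in the first batch. Batch-blocked values, from a fit with a batch term, are given beside the genes described in full, and values within each batch for Cdc20, Prc1 and the gene groups.

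A cell that divides first passes G1, where D-type cyclins with Cdk4, and E-type cyclins with Cdk2, release E2F transcription factors. E2F drives the S phase genes, whose products load the helicase, make nucleotides and copy the DNA. The mitosis genes follow in G2, largely under the MuvB complex with B-MYB and FOXM1, which binds a short promoter element named the cell cycle genes homology region (CHR). Their products condense and move chromosomes, hold the spindle checkpoint and mark cyclins for destruction. Cardiomyocytes of the mouse still divide late in gestation and leave the cell cycle in the days after birth, and the other cells of the ventricle divide too. In whole ventricles, fewer dividing cells and less of these RNAs per cell cannot be told apart.

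Between KO and WT, Cdc20 and Prc1 fell and no other of the 42 genes passed the test (limma, two-sided, Benjamini-Hochberg adjustment over 13028 genes, adjusted p under 0.05). Most genes of mitosis lay lower in KO than in WT by less than that test calls, while S phase genes lay on both sides. The mean log2 difference between KO and WT was below 0 in 31 of the 42, with a median of -0.18. Over all genes tested, 51.6% lay below 0 and the median was -0.0092. The calls lower in KO were 2 of 42, where 0.883% of all genes tested were called lower, and calls higher were 0, where 0.737% of all genes were called higher. In both directions together, 1.62% of all genes were called.

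The arrays of KO and WT did not overlap in 21 of the 42 genes, 18 of them lower in KO and 3 higher. Such a gap was found in 25.0% of all genes tested, where 13.9% had every KO array below every WT array and 11.1% had every KO array above. Of the 18, 12 were genes of mitosis, 3 of S phase (Pcna, Mcm6 and Tk1) and 3 of G1 (Cdk4, Ccnd1 and E2f1). The 3 that lay higher were Mcm2, Ccne2 and Cdkn1b.

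**Figure D1:**
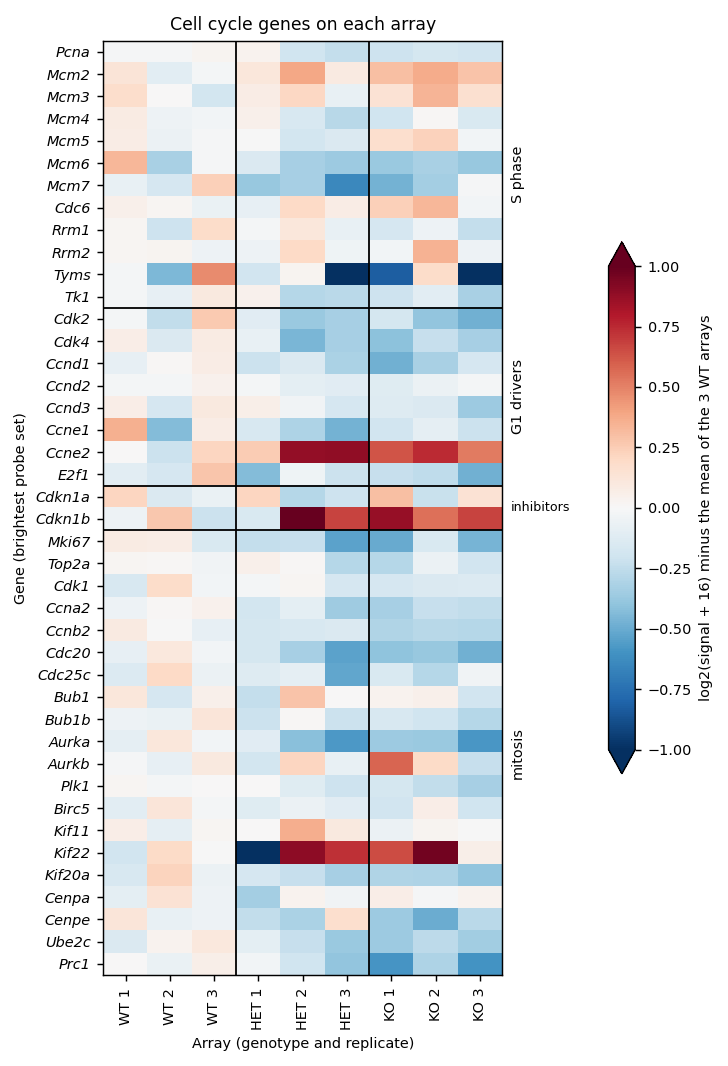
Colour gives the log2(signal + 16) of a gene on an array minus the mean of the 3 WT arrays (red above, blue below, capped at 1), for the 42 genes by role, with arrays grouped by genotype. Most mitosis genes are below the WT mean on all 3 KO arrays, S phase genes are mixed, and Kif22 on HET replicate 1 stands far below the rest.

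Promoters of the genes were read from RefSeq (GRCm38.p6), as 250 bases before to 50 after each annotated start, and searched on both strands for TTTGAA, the core of the CHR, for CCAAT, and for the E2F letters TTCCCGC or TTGGCGC. Of the 43 genes, 35 were in the table. TTTGAA stood in 13 of 17 mitosis genes (76.5%), in 1 of 11 S phase genes (Mcm2) and in none of 5 G1 drivers and 2 inhibitors, against 20.2% of 27025 genes of the mouse. All 13 also held CCAAT, a pair found in 7.97% of all genes. The E2F letters stood in 6 of 11 S phase genes (54.5%) and 3 of 17 mitosis genes, against 7.79% of all genes. A match of letters is a description and shows no binding.

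The 4 promoters below show both kinds: Cdc20 and Prc1 are the genes that fell, Ccnb2 is the gene whose KO arrays lay below every HET array as well, and Mcm6 has the lowest KO mean relative to WT among the S phase genes whose arrays did not overlap. Each is written 5′ to 3′ on the gene's strand, in lower case. Capitals mark TTTGAA in Cdc20 (chr4:118437294-118437593, minus strand), Prc1 (chr7:80294201-80294500, plus strand) and Ccnb2 (chr9:70421505-70421804, minus strand), and the E2F letters in Mcm6 (chr1:128359656-128359955, minus strand).
Cdc20: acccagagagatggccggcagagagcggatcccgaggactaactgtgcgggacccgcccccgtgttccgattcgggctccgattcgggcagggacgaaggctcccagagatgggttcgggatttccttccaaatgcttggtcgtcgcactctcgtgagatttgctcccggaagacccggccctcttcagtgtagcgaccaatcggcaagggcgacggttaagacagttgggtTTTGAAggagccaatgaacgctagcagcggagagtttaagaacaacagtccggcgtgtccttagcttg
Prc1: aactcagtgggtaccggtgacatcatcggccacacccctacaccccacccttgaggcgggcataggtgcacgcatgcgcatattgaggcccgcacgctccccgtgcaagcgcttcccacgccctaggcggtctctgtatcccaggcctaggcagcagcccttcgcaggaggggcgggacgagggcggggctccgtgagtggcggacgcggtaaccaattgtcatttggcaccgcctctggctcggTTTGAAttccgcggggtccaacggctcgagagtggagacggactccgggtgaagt
Ccnb2: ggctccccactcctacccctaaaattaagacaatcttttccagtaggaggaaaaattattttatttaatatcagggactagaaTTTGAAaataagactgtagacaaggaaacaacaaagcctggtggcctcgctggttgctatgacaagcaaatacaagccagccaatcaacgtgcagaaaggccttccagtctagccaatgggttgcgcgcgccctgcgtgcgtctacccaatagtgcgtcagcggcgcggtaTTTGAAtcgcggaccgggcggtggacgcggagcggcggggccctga
Mcm6: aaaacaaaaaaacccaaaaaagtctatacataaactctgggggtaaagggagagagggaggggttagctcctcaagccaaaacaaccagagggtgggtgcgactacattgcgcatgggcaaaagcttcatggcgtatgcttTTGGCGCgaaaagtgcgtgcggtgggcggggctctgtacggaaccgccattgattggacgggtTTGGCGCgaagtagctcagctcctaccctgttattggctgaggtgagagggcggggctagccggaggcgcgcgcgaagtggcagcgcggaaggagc
The match in Cdc20 begins 18 bases before the annotated start and that in Prc1 5 bases before. Ccnb2 holds 2 matches, of which 1 lies 167 bases before the start. Mcm6 holds TTGGCGC at 109 and at 46 bases before its start.

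Among genes of S phase none passed the test between KO and WT, and the KO arrays differed among themselves. Of 12 genes 7 lay lower and 5 higher in KO, with a median log2 difference of -0.13 and unadjusted p under 0.05 for 3 lower and 1 higher. Over all genes, 9.28% were lower and 7.91% higher at that unadjusted p.

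The MCM helicase, which opens the DNA at origins, is a ring of 6 proteins, and its genes did not go together. Mcm2 signals were 744, 630 and 672 (WT), 736, 895 and 725 (HET) and 842, 884 and 831 (KO). Every KO array of Mcm2 was above every WT array, and HET overlapped both. The log2 difference of Mcm2 was 0.32 ± 0.11 (SE; limma adjusted p = 0.127), and its other probe set gave 0.32 as well, while the batch-blocked value was 0.19. Mcm6 went the other way, with signals of 2115, 1340 and 1668 (WT), 1515, 1331 and 1300 (HET) and 1295, 1336 and 1286 (KO). WT replicate 1 of Mcm6 stood high and WT replicate 2 lay within 5 signal units of a KO array, so the separation of the groups is narrow. Its log2 difference was -0.36 ± 0.13 (SE; limma adjusted p = 0.143), and -0.16 after blocking on batch. Mcm7 signals were 2395, 2243 and 2971 (WT), 1938, 1997 and 1601 (HET) and 1812, 1991 and 2496 (KO). In Mcm7 the HET arrays lay below all WT arrays and KO overlapped both, at a log2 difference between KO and WT of -0.27 (limma adjusted p = 0.276) and a batch-blocked one of -0.16. The other probe sets of Mcm7 gave -0.18, -0.26 and 0.23, each with overlapping HET and WT arrays. Mcm3 and Mcm5 had log2 differences of 0.22 and 0.12 and Mcm4 one of -0.11, each with overlapping arrays, and batch-blocked values of 0.23, 0.28 and 0.16.

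Pcna, the clamp that holds DNA polymerase on its template, had signals of 8394, 8376 and 8620 (WT), 8686, 7359 and 7153 (HET) and 7344, 7487 and 7427 (KO). The KO arrays were all below the WT arrays. HET replicate 1 sat with WT and the other HET arrays sat with KO, a parting that coincides with the array batches. HET replicate 1 is the only HET array of its batch, so batch and an outlying array cannot be told apart. The cause of the parting was not tested. The log2 difference of Pcna was -0.19 ± 0.07 (SE; limma adjusted p = 0.169), and in the fit with a batch term it was 0.07. Tk1, which salvages thymidine, had signals of 909, 869 and 986 (WT), 949, 753 and 759 (HET) and 795, 856 and 731 (KO). The HET arrays of Tk1 parted in the same way, and the same limit holds. Its log2 difference was -0.21 (limma adjusted p = 0.339), and 0.11 once batch was blocked. Rrm1 and Rrm2, the subunits of ribonucleotide reductase, had log2 differences of -0.15 and 0.09, and batch-blocked ones of -0.19 and -0.04. Cdc6, which loads the helicase, had 0.18 and, with batch blocked, -0.03, and Tyms, which makes thymidylate, was dim, at signals of 4.5 to 58.9.

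None of the G1 drivers passed the test between KO and WT either, although 7 of 8 lay lower in KO, with a median log2 difference of -0.27 and unadjusted p under 0.05 for 4 lower and 1 higher. At that p, 9.28% of all genes tested were lower and 7.91% higher. Ccnd1, a D-type cyclin that activates Cdk4, had signals of 1248, 1334 and 1394 (WT), 1136, 1198 and 1062 (HET) and 945, 1055 and 1176 (KO). The WT arrays were above all others, and HET and KO overlapped. The log2 difference was -0.32 ± 0.10 (SE; limma adjusted p = 0.0966) and -0.31 after blocking on batch. The other probe sets of Ccnd1 gave -0.06 and -0.10, with overlapping KO and WT arrays. Cdk4 itself had signals of 2581, 2225 and 2609 (WT), 2345, 1794 and 1955 (HET) and 1850, 2102 and 1952 (KO). HET replicate 1 of Cdk4 lay among the WT arrays and HET replicates 2 and 3 among or below the KO arrays. Its log2 difference of -0.32 ± 0.10 (SE; limma adjusted p = 0.107) was -0.0027 in the batch-blocked fit. The brightest probe set of Cdk4 is of a kind that Affymetrix marks as possibly binding other transcripts. The other probe sets of Cdk4 gave -0.19 and 0.06, with overlapping KO and WT arrays.

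Ccne2, a cyclin that activates Cdk2 at the entry to S phase, was the only G1 driver higher in KO. Its signals were 88.0, 73.1 and 104 (WT), 107, 174 and 175 (HET) and 144, 158 and 133 (KO). All HET and KO arrays lay above the WT arrays, with HET replicate 1 next to WT. The log2 difference was 0.63 ± 0.20 (SE; limma adjusted p = 0.12) and 0.002 in the fit with a batch term. Ccne1, its paralog, had a log2 difference of -0.16 with overlapping arrays. Cdk2 and E2f1 had -0.35 and -0.32, Ccnd3 -0.21 and Ccnd2 -0.06. Blocking on batch gave 0.07 for Ccne1, -0.12 for Cdk2, -0.62 for E2f1, -0.05 for Ccnd3 and 0.02 for Ccnd2.

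The inhibitors of the kinases were not called. Cdkn1b, which encodes p27 and is known to rise as heart muscle cells leave the cell cycle, had signals of 223, 283 and 197 (WT), 207, 518 and 381 (HET) and 438, 348 and 381 (KO). HET replicate 1 lay within the WT range and all other HET and KO arrays lay above WT. The log2 difference was 0.70 ± 0.23 (SE; limma adjusted p = 0.13), it was -0.34 once batch was blocked, and the other probe set of the gene gave -0.56. Cdkn1a, which encodes p21, had a log2 difference of 0.08, a batch-blocked one of 0.53, and overlapping arrays.

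**Figure D2:**
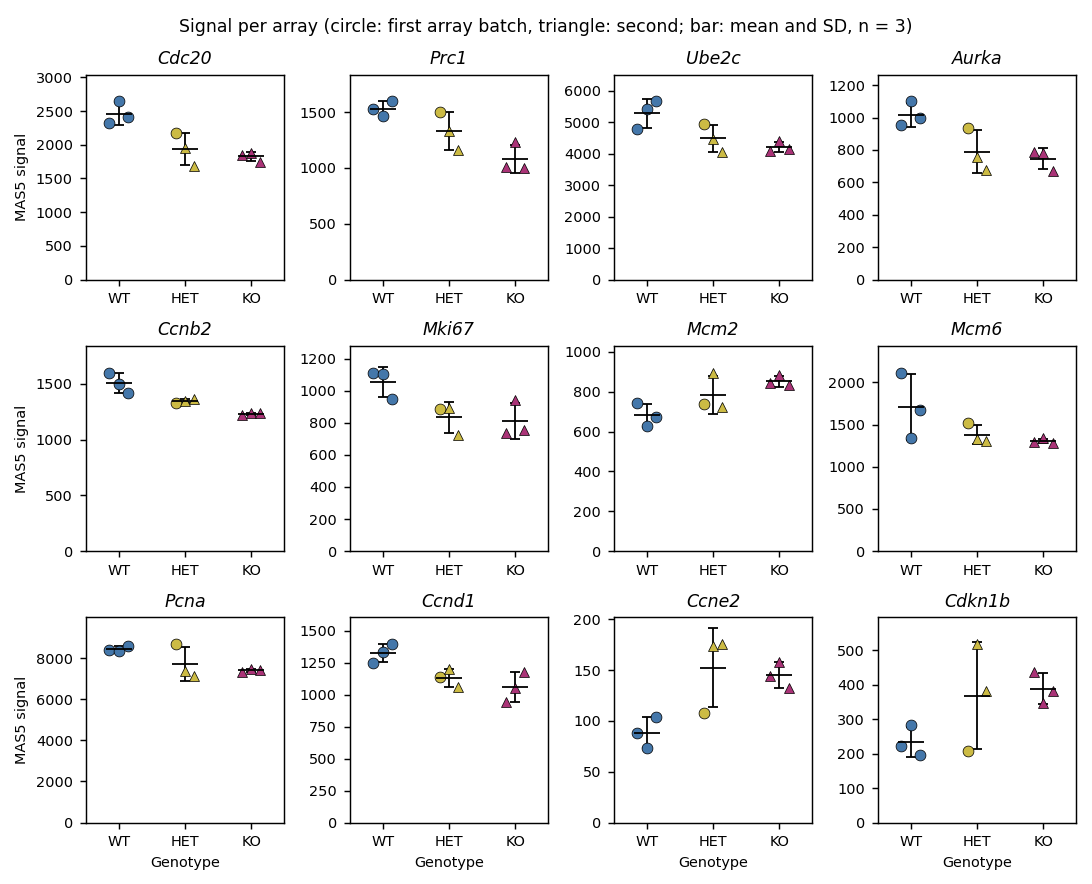
Signal (linear intensity, 1 point per array) in WT, HET and KO for 12 of the named genes, with bars for the mean and SD of 3 arrays, circles for the first array batch and triangles for the second. In Cdc20 and Prc1 the 3 KO points are all below the 3 WT points, and in Pcna and Cdkn1b the HET circle stands with the WT points.

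In mitosis, 17 of 20 genes lay lower in KO than in WT and the called genes, Cdc20 and Prc1, were both lower. The median log2 difference was -0.23, the unadjusted p was under 0.05 for 10 lower and 0 higher, and the arrays did not overlap in 12 lower and 0 higher. Of all genes tested, 9.28% were lower and 7.91% higher at that p, and 13.9% lower and 11.1% higher without overlap. Those 12 were Mki67, Top2a, Ccna2, Ccnb2, Cdc20, Bub1b, Aurka, Plk1, Kif20a, Cenpe, Ube2c and Prc1. On single arrays the median of the 20 genes relative to the WT mean was -0.05, 0.03 and -0.02 (WT), -0.17, -0.10 and -0.21 (HET) and -0.24, -0.21 and -0.26 (KO). The genotypes did not overlap in that median, although HET replicate 3 and KO replicate 2 were nearly equal. The same medians over S phase genes, 0.03, -0.07 and -0.01 (WT), -0.01, -0.07 and -0.19 (HET) and -0.18, 0.10 and -0.10 (KO), did overlap.

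**Figure D3:**
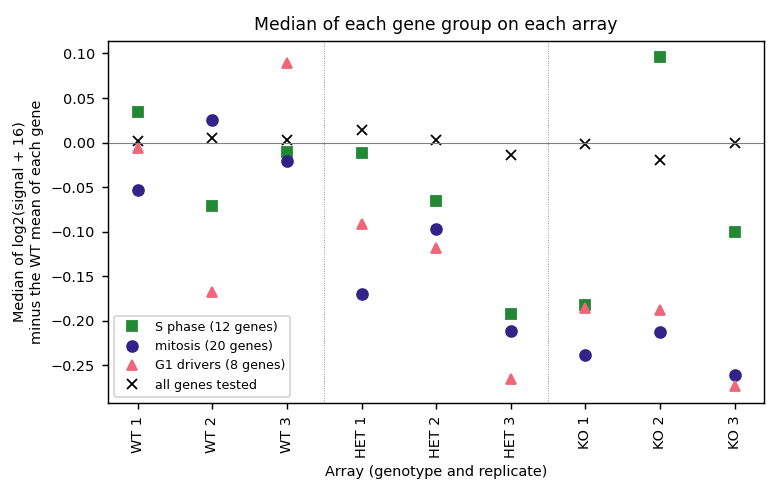
Median over the genes of each role of log2(signal + 16) minus the WT mean, 1 point per array, for mitosis, S phase, G1 drivers and all genes tested. The mitosis medians are highest in WT and lowest in KO with a bare gap between HET and KO, the S phase medians overlap, and all genes tested stay within 0.02 of 0.

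Cdc20 activates the anaphase-promoting complex, the ubiquitin ligase that starts anaphase. Its signals were 2317, 2645 and 2413 (WT), 2175, 1950 and 1690 (HET) and 1853, 1882 and 1751 (KO). All KO and all HET arrays lay below the WT arrays, and KO and HET overlapped. Cdc20 fell by 0.42 ± 0.09 (SE) on the log2 scale, to 74.4% of the WT mean (limma adjusted p = 0.0371). Within the first batch HET replicate 1 differed from WT by -0.17, and within the second KO differed from HET replicates 2 and 3 by 0.01. Between the batches HET replicates 2 and 3 differed from HET replicate 1 by -0.26.

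Prc1 bundles microtubules in the spindle midzone, where the cell will divide. Its signals were 1531, 1462 and 1597 (WT), 1504, 1327 and 1161 (HET) and 1010, 1230 and 1003 (KO). Every KO array lay below every WT array, and HET overlapped both. Prc1 fell by 0.50 ± 0.11 (SE) on the log2 scale, to 70.6% of the WT mean (limma adjusted p = 0.0339). HET replicate 1 differed from WT by -0.02 within the first batch, and KO from HET replicates 2 and 3 by -0.20 within the second, while the HET arrays of the batches differed by -0.27. Its other probe set had a difference of -0.28 with overlapping arrays.

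Both calls depend on the arrays used. Neither held when any 1 of the WT or KO arrays was left out, where 0 of the 42 genes were called, nor after blocking on batch, where the log2 differences were -0.16 for Cdc20 and -0.23 for Prc1. The calls over all genes tested also fell, from 211 to between 10 and 79 with 1 WT or KO array left out and to 1 with batch blocked. Over 22 alternative settings Cdc20 was called in 12, with limma adjusted p from 0.00463 to 0.893, and Prc1 in 13, from 0.00483 to 0.873.

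Ube2c, the ubiquitin-conjugating enzyme that works with the anaphase-promoting complex, had signals of 4782, 5413 and 5672 (WT), 4937, 4485 and 4075 (HET) and 4088, 4396 and 4143 (KO). All KO arrays were below all WT arrays and the HET arrays reached into both. The log2 difference was -0.33 ± 0.08 (SE; limma adjusted p = 0.0582), and -0.12 once batch was blocked (limma adjusted p = 0.923). Over the 22 alternative settings Ube2c was called in 5, with limma adjusted p from 0.0113 to 0.923. Aurka, the kinase of centrosomes and spindle poles, had signals of 953, 1101 and 998 (WT), 935, 757 and 675 (HET) and 787, 780 and 672 (KO). HET replicate 1 of Aurka stood just under the WT arrays and the other two among KO. Its log2 difference was -0.44 ± 0.12 (SE; limma adjusted p = 0.075), and -0.06 in the batch-blocked fit.

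Ccnb2 encodes a B-type cyclin that activates Cdk1. Every KO array lay below every HET array in 5.73% of all genes tested, and of the 42 only in Ccnb2, a smaller share. Its signals were 1601, 1502 and 1423 (WT), 1333, 1350 and 1362 (HET) and 1223, 1240 and 1235 (KO). The 3 genotypes did not overlap at all, and HET replicate 1 was close to the other HET arrays. How many of all genes part in all 3 genotypes was not counted. The log2 difference between KO and WT was -0.29 ± 0.08 (SE; limma adjusted p = 0.078), and -0.31 in the fit with a batch term. Ccna2, the cyclin of S phase and G2, had signals of 2595, 2716 and 2770 (WT), 2372, 2511 and 2098 (HET) and 2132, 2297 and 2265 (KO). WT was above all other arrays, while HET and KO overlapped. Its log2 difference was -0.27 ± 0.08 (SE; limma adjusted p = 0.0954), and -0.22 once batch was blocked. The other probe set of Ccna2 gave -0.14, with overlapping KO and WT arrays.

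Mki67, the proliferation marker that coats mitotic chromosomes, had signals of 1113, 1107 and 946 (WT), 888, 893 and 722 (HET) and 737, 944 and 758 (KO). The highest KO array lay just under the lowest WT array. Its log2 difference was -0.37 ± 0.12 (SE; limma adjusted p = 0.113), and -0.23 after blocking on batch. Top2a, the topoisomerase that untangles sister chromatids, had signals of 1164, 1159 and 1120 (WT), 1188, 1159 and 937 (HET) and 937, 1103 and 1002 (KO). KO and WT of Top2a were apart by a small gap, HET replicates 1 and 2 stood at the WT level and HET replicate 3 with KO. The difference of -0.18 had a limma adjusted p of 0.397 and turned to 0.0082 once batch was blocked. Of the other kinesins and centromere genes, Kif20a, a motor of cytokinesis, had a difference of -0.33 and Cenpe, a kinetochore motor, one of -0.38, both with KO arrays below WT, and batch-blocked values of -0.22 and -0.55. Kif11, the motor that pushes spindle poles apart, had -0.01 and Cenpa, the centromeric histone, 0.03, against -0.24 and -0.31 with batch blocked. Bub1b and Plk1, a checkpoint kinase and a kinase of mitotic entry, had -0.21 and -0.25 with KO arrays below WT, and -0.33 and -0.08 with batch blocked. Cdk1, Birc5, Cdc25c and Bub1 lay between -0.16 and -0.03 and Aurkb at 0.18, all with overlapping arrays. Their batch-blocked values were -0.10, -0.14, 0.02, -0.42 and -0.07 in that order.

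**Figure D4:**
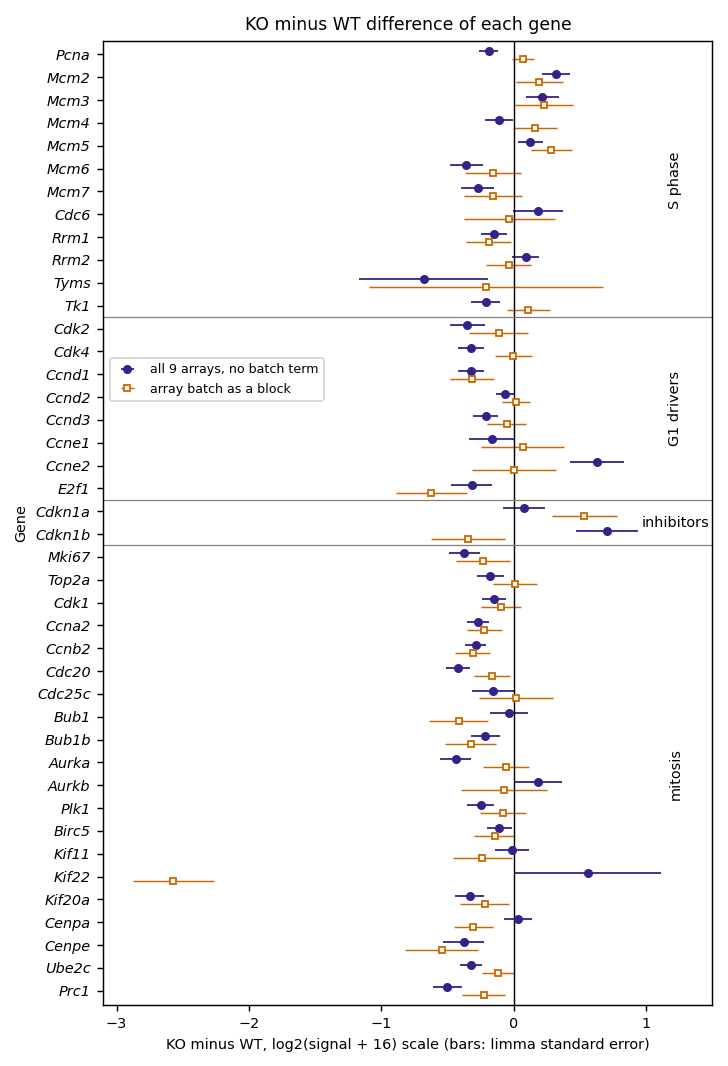
Difference of KO minus WT on the log2(signal + 16) scale for each of the 42 genes by role, as filled circles (all 9 arrays, no batch term) and open squares (array batch as a block), with limma standard errors. Mitosis genes lie mostly left of 0 in both fits, and the squares of Cdk4, Ccne2, Cdkn1b and Kif22 lie far from their circles.

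In HET against WT no gene of the whole table was called (0.0% of 13028), while 769 (5.9%) lay lower and 730 (5.6%) higher at an unadjusted p under 0.05. Of the 42 genes, 33 lay lower in HET, with a median log2 difference of -0.13, and 10 lower and 2 higher had that unadjusted p. The arrays of HET and WT did not overlap in 9 genes lower and 1 higher, where 7.41% of all genes were wholly lower and 6.29% wholly higher. In mitosis 18 of 20 lay lower, at a median of -0.15. The 6 mitosis genes with HET wholly below WT were Mki67, Ccna2, Ccnb2, Cdc20, Aurka and Kif20a. S phase had 7 of 12 lower and a median of -0.12, and Mcm7 alone was wholly below WT, on its brightest probe set only. The mean of HET lay between those of WT and KO in 28 of the 42 genes (66.7%) and in 14 of 20 mitosis genes, against 44.2% of all genes tested. That position and the differences of HET and of KO all use the same WT arrays, so they are not separate evidence.

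Between KO and HET 2 of all genes tested were called (0.0154%), and 0 of the 42. At an unadjusted p under 0.05 there were 1 lower (Prc1, -0.29) and 1 higher (Mcm5, 0.24), where 2.69% of all genes were lower and 2.11% higher. The median log2 difference was -0.08 in mitosis, with 16 of 20 genes lower, and 0.04 in S phase, with 5 of 12 lower. Ccnb2 was the only gene without overlap, where 5.73% of all genes had every KO array below every HET array and 4.76% every KO array above.

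Within the first array batch, HET replicate 1 lay below the WT mean in 17 of 20 mitosis genes, with a median log2 difference of -0.17, and the median of all genes tested was 0.01. Within the second, KO lay below HET replicates 2 and 3 in 14 of 20, with a median of -0.05, and all genes stood at 0.0015. Between the batches, HET replicates 2 and 3 differed from HET replicate 1 by a median of -0.05 in mitosis, where 11 of 20 genes were lower, and by -0.05 over all genes. With batch blocked, the median of KO against WT was -0.22 in mitosis, with 18 of 20 genes lower, and 0.02 over all genes. S phase genes differed by -0.14 between the HET arrays of the batches and by -0.01 and 0.05 within them, and the block gave 0.02 with 6 of 12 lower. The G1 drivers had -0.12 between the HET arrays, -0.09 and -0.05 within the batches, and -0.03 with the block. The values within the first batch, between the HET arrays and with batch blocked rest on HET replicate 1, the single HET array of its batch and the array of lowest quality weight (0.455), while those within the second batch do not use it.

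Without HET replicate 1, the differences of KO and WT are the same by construction and only the spread changes. Then 11 of the 42 genes were called, where 6.45% of all genes were called. Those lower were Pcna, Ccna2, Ccnb2, Cdc20, Aurka, Ube2c, Prc1, Cdk4 and Ccnd1, and those higher Ccne2 and Cdkn1b. In HET against WT, 8 were called without that array, where 4.41% of all genes were: Pcna, Cdc20, Aurka, Ube2c and Cdk4 lower, and Ccne2, Cdkn1b and Kif22 higher. That comparison, like KO against WT, then sets the second batch wholly against the first, and batch and genotype cannot be told apart in it.

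Probe sets of the same gene often disagreed. Of 29 genes with at least 2 probe sets above the filter, 19 had log2 differences of KO and WT with opposite signs, and in 10 the values lay more than 0.5 apart, most widely in Cdkn1b. Over all 89 such probe sets 56 lay lower in KO. When each probe set of the table was tested on its own, that of Prc1 was the single one called (limma adjusted p = 0.0474), where 0.79% of all probe sets were called.

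Kif22, a motor that pushes chromosomes outwards, had the widest spread between its probe sets in the difference of HET replicates 2 and 3 from HET replicate 1. On its brightest probe set the signals were 673, 882 and 765 (WT), 141, 1445 and 1282 (HET) and 1218, 1515 and 799 (KO). HET replicate 1 stood far below every other array and HET replicates 2 and 3 above all WT arrays. The log2 difference of KO and WT was 0.56 ± 0.55 (SE; limma adjusted p = 0.666), and after blocking on batch it was -2.57 (limma adjusted p = 0.00562), the only gene called there of the whole table (0.00768%). The other probe sets of Kif22 gave -0.15 and -0.53 and differed between the HET arrays of the batches by 0.07 and -0.12, where the brightest differed by 3.13. The brightest one bears the suffix by which Affymetrix marks probes that may also bind other transcripts.

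Probe sets with that suffix gave other values in Cdc20, Mcm4 and Mcm6 too. For Cdc20 such a probe set had signals of 1854, 2256 and 1946 (WT), 1461, 2173 and 2191 (HET) and 2088, 2243 and 2063 (KO). Its KO and WT arrays overlapped, at a log2 difference of 0.08 ± 0.13 (SE), and the remaining one, with the same suffix, gave -0.27 ± 0.67 (SE). The call of Cdc20 rests on the probe set without that suffix. The call of Prc1 rests on a probe set with another suffix, for probes shared by several transcripts. Mcm4 and Mcm6 had 0.91 and 0.65 on probe sets marked as possibly binding other transcripts, against -0.11 and -0.36 on their brightest ones. The brightest probe sets of Cdk4, Mcm5, Rrm2, Aurkb, Ccne1 and Cdc25c are marked in that way themselves. Mcm5 had 0.12 on its marked probe set against -0.14 and -0.35 on the others, and Rrm2 0.09 against -0.16 and 0.30. Aurkb had 0.18 against 0.53, Ccne1 -0.16 against -0.00061 and Cdc25c -0.16 against 0.07. With the mean of all probe sets of a gene, 8 of 41 genes changed sign, the median of S phase was 0.01 and that of mitosis -0.17.

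**Figure D5:**
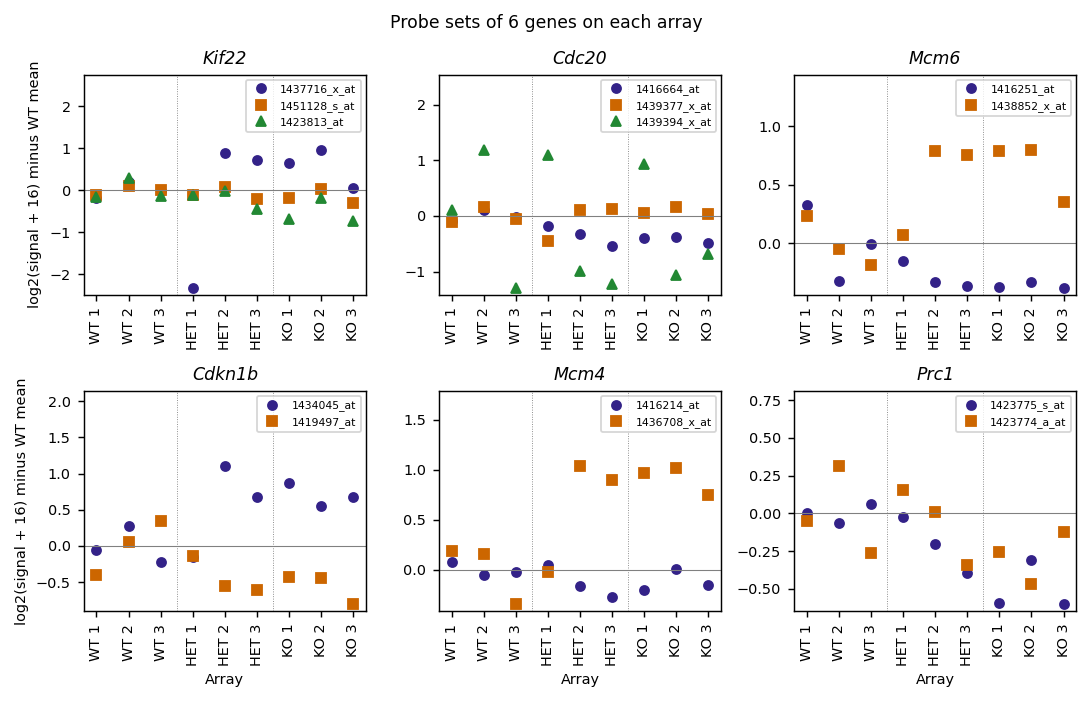
Log2(signal + 16) minus the mean of the 3 WT arrays for each probe set above the filter in 6 genes, 1 point per array, with probe set names in the keys. Kif22 on HET replicate 1 is low on its brightest probe set alone, and in Mcm4, Mcm6 and Cdkn1b the probe sets part on the arrays of the second batch.

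Other genes of the same pathways, from lists that do not hold the 43, were compared in the same fit. Of 58 other mitosis genes tested, 36 lay lower in KO than in WT, with a median log2 difference of -0.09 and unadjusted p under 0.05 for 15 lower and 6 higher. At that p, 9.28% of all genes tested were lower and 7.91% higher. With batch blocked, 43 of the 58 lay lower and their median was -0.13. Ube2s, the enzyme that extends ubiquitin chains for the anaphase-promoting complex, fell by 0.44 ± 0.09 (SE) on the log2 scale (limma adjusted p = 0.032). It was the only one called, where 0.883% of all genes tested were called lower. It was called neither in the batch-blocked fit (-0.26) nor without any 1 of WT replicates 2 and 3 and the KO replicates, where the limma adjusted p reached 0.148. Stmn1, which destabilises microtubules, had -0.27 (limma adjusted p = 0.0536), and Plk4, the kinase of centriole duplication, 0.47 (limma adjusted p = 0.076). Blocking on batch gave -0.09 for Stmn1 and 0.21 for Plk4.

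Of 52 other S phase genes 24 lay lower, with a median of 0.01 and 0 called, and unadjusted p was under 0.05 for 4 lower and 6 higher. The shares of all genes tested at that p were 9.28% lower and 7.91% higher. Chek1, the checkpoint kinase of stalled forks, had 0.62, Dck, which salvages deoxycytidine, 0.72, and Rfc2, of the clamp loader, -0.26 (limma adjusted p = 0.127, 0.135 and 0.141). With batch blocked, these were 0.32, -0.42 and -0.26, and the median of the list was 0.08 with 19 genes lower. Among 32 other genes of G1 control 8 lay lower, with a median of 0.10, and with batch blocked 15 lay lower, with a median of 0.06. Ccng1, a cyclin induced by p53, rose by 0.51 ± 0.11 (SE; limma adjusted p = 0.0327). It was the only one called, where 0.737% of all genes tested were called higher. It was not called without any 1 of WT replicates 2 and 3 and the KO replicates, nor in the fit with a batch term, where its difference was 0.47. Fzr1, which activates the anaphase-promoting complex in G1, had -0.26, and Lin54, the DNA-binding subunit of MuvB, 0.56 (limma adjusted p = 0.179 and 0.201), against -0.18 and -0.0090 with batch blocked.

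Markers of the cell types of the ventricle were read beside these genes. The 10 cardiomyocyte markers had a median log2 difference of -0.10 between KO and WT, with summed signals of 185950 to 197210 in WT, 169230 to 189670 in HET and 170930 to 186550 in KO. With batch blocked that median turned to 0.04, with 4 of 10 lower. The 8 fibroblast markers lay higher in KO in 7 cases, at a median of 0.18, with summed signals of 34261 to 39112 in WT, 34215 to 39428 in HET and 38776 to 40262 in KO, and a batch-blocked median of 0.23. The 6 smooth muscle markers had a median of 0.26 and summed signals of 15052 to 17292 in WT, 16600 to 18027 in HET and 16908 to 19453 in KO, and a batch-blocked median of 0.29. In the other lists 4 of 7 endothelial markers lay lower, and the medians were -0.03 in endothelium, 0.08 in macrophages, 0.15 in epicardium and 0.02 in the 4 erythroid markers that could be tested, of 10 listed. These 4 medians changed with the setting. Leaving out WT replicate 3 gave 0.01, 0.0027, -0.20 and -0.17, and blocking on batch gave 0.22, 0.18, -0.0050 and 0.44, in that order. Erythroid precursors divide fast, and the summed signals of their 7 markers with a probe set were 3196 to 3984 in WT, 2673 to 3848 in HET and 3156 to 3164 in KO. Hba-a1, of alpha globin, read only 1.87 to 17.0 on its probe set. Among all these markers Kdr of endothelium was called lower (-0.74), and Nppa of cardiomyocytes and Lum of fibroblasts were called higher (0.24 and 0.33; limma adjusted p = 0.0262, 0.0459 and 0.0482). Of all genes tested, 0.883% were called lower and 0.737% higher. None of these 3 markers was called once batch was blocked or without any 1 WT or KO array. The part of cell mixture in the values of the cell cycle genes was not tested.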

How the data were processed

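The deposited values are linear intensities, 1 per probe set and array, made by the authors with MAS5, as the submitters' processing notes name it (no version stated) from 6 µg of total RNA per array. After trimming 2% at each end the deposited column of WT replicate 1 averaged 200, which marks a scaling by a factor. That mean is not given here for the other columns. Column medians ran from 36.6 to 45.9. MAS5 subtracts mismatch probes, so dim signals are noisy. The number of arrays, 9, limits the precision.

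Of 45101 probe sets, 64 are controls and 34945 name 1 gene by the platform annotation, with symbols updated through RefSeq. Intensities were converted to log2(signal + 16), a scale that shrinks differences of dim genes. The brightest probe set by mean over all arrays stood for its gene, and genes under the 40th percentile of probe sets (5.24 on that log2 scale) were dropped. A limma fit (version 3.58.1, R 4.3.3) over the 9 arrays, with eBayes and an intensity trend, left 6 residual degrees of freedom, or 5 with the batch block. Its p-values were adjusted within each comparison, and a gene is called at an adjusted p under 0.05. The fit was also run on simulated data. Those were independent normal values with no batch and no outlying array, so they cannot show how such features affect the calls.

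The genes, the lists, the batch split and the alternatives were chosen with earlier results of these data known. Values on every array are given for called genes, for the 5 S phase, 7 mitosis and 4 G1 genes (inhibitors included) of smallest unadjusted p between KO and WT, and for Mki67, Top2a, Pcna and Kif22. From the other lists, called genes and the 3 of smallest p are named. Alternatives changed normalization, pseudocount (1 and 64), filter (none and 60th percentile), probe set choice, variance model, blocks and arrays. Plots used matplotlib 3.10.9 (Python 3.11.15).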

Additional observations from a re-analysis of the deposited data

How the results depend on the processing

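The genes called KO minus WT (211) numbered 85 with no filter, 7 when probe sets of a gene were averaged, 6 with no intensity trend, 773 with only the 6 arrays compared, 612 with array quality weights, 1 with the array batch as a block and 441 without HET replicate 1 and WT replicate 3. Quantile normalization and a shift to one median gave 170 and 236. Leaving out 1 array at a time gave 10 to 840. The members called KO minus WT (2) numbered 1, 0, 0, 9, 6, 1 and 6 under those first 7 settings, 1 with each probe set on its own, and 0 to 11 with 1 array left out. The mitosis members median KO minus WT was -0.17 with averaged probe sets and ran from -0.25 to -0.21 with 1 array left out. The S phase members median KO minus WT was 0.0090 with averaged probe sets, 0.017 with the batch block and -0.19 to -0.09 with 1 array left out. Genes called HET minus WT (0) numbered 9 with weights, 2 with the batch block, 230 without HET replicate 1 and WT replicate 3, and 0 to 574 with 1 array left out. The members called HET minus WT (0) numbered 1 (Kif22), 4 and 0 to 8 under the last 3. The S phase members median HET minus WT was -0.012 with the batch block and with HET replicate 1 alone in its batch. Genes called KO minus HET (2) numbered 0 with averaged probe sets, no trend, only 6 arrays or both arrays left out, and 0 to 3 with 1 array left out, and the mitosis members median KO minus HET was 0.00013 with averaged probe sets. Kif22 KO minus WT turned to -2.57 under the batch block, which rests on its low HET replicate 1. The cause of the other changes was not tested. Each probe set on its own and the values within a batch were chosen after seeing the data. Background noise of the arrays limits dim genes such as Tyms.

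The replicate numbers were not taken as pairs: the 9 same-numbered pairs of arrays had correlations of -0.04 to 0.05, with 0 over 0.1. With the replicate number as a block, genes called KO minus WT numbered 127 and genes called HET minus WT numbered 1, and Cdc20 and Prc1 were still called (limma adjusted p = 0.0447 and 0.0471).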

Other observations

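Over all 1490 probe sets above the filter with the suffix for possible cross-hybridisation, 32.0% differed by more than 0.5 on the log2 scale between HET replicates 2 and 3 and HET replicate 1. That share was 23.2% of 17097 probe sets with the plain suffix, 18.2% of 3399 that bind transcripts of one gene and 20.5% of 1554 shared by several transcripts. Between KO and WT the shares over 0.5 were 20.7%, 12.4%, 10.9% and 11.2%. These are descriptions of the whole table, in which probe sets of a gene share arrays, and the cause was not tested.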
